A study of Homo sapiens with 2 samples.

Results

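The genes described here are 48 regulators and helpers of pre-mRNA splicing, chosen by gene symbol from a list of SR proteins, hnRNPs and the factors that act on them. Each symbol matched 1 Ensembl gene, so all 48 were found among the 60683 genes counted. They comprise the 12 SR proteins SRSF1 to SRSF12, 4 SR-related proteins (TRA2A, TRA2B, SRRM1 and SRRM2), 6 kinases that phosphorylate SR proteins (SRPK1, SRPK2 and CLK1 to CLK4) and 24 hnRNPs, with PTBP2 and PTBP3 kept apart as paralogs of the hnRNP PTBP1. The hnRNPs are the 20 genes named HNRNP together with SYNCRIP, PCBP1, PCBP2 and PTBP1.

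The cells were HEK293T, a human embryonic kidney line that carries the SV40 large T antigen, in which shRNAs had been used to make a stable knockdown of FKBP5, a co-chaperone of HSP90. Total RNA was sequenced from 2 samples, both labelled FKBP5 knockdown and both from HEK293T, which form 1 group. Control cells with a scrambled hairpin were not analysed here, so the data give levels in knockdown cells and no effect of the knockdown. The labels do not say whether the samples came from separate cultures, separate hairpins or a clone, and the spread between them may be technical.

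SR proteins carry RNA recognition motifs and a tail rich in arginine and serine. They commonly bind enhancers in exons, where they help the spliceosome recognise nearby splice sites. The hnRNPs coat nascent transcripts, and many of them oppose exon inclusion, although the outcome depends on where they bind. Phosphorylation of the arginine- and serine-rich tail by SRPK and CLK kinases governs the import of SR proteins into the nucleus and their release from speckles. Many genes of both families limit their own output by splicing in an exon with a premature stop codon, which sends the transcript to nonsense-mediated decay.

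Such exons are annotated in this set, and a few are printed because the counts described below are per gene and do not separate transcripts that carry such an exon from those that do not. In GENCODE 29, an internal exon that lies outside the principal coding transcript and holds the stop codon of a decay transcript was found in 10 of the SR and SR-related genes. The following sequences run 5′ to 3′ from the first base of that exon to its stop codon, which is in capitals. They were read from GENCODE 29 transcripts (GRCh38). The first lies at chr6:36599821-36599854 on the plus strand in an exon of 456 bases, the next at chr2:38749152-38749173 on the minus strand in an exon of 276 bases, the third at chr1:70231859-70231908 on the plus strand in an exon of 117 bases, and the last at chr3:185931772-185931852 on the minus strand in an exon of 276 bases.
SRSF3-203: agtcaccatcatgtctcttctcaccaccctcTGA
SRSF7-203: ggcagaaaatttgagacggTGA
SRSF11-212: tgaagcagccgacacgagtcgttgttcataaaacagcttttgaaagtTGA
TRA2B-206: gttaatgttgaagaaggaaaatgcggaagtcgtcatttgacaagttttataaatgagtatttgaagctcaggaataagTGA

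Stretches from the first base of such an exon to its stop codon were compared between genes, and the rest of each exon was not. The paralogs SRSF4 and SRSF6 shared a run of 20 bases within these stretches. Among the stretches of all other pairs of different genes, the longest shared run was 10 bases. Capitals mark the shared run and, at the end, the stop codon. The SRSF4 stretch lies at chr1:29160018-29160058 on the minus strand and the SRSF6 stretch at chr20:43459153-43459304 on the plus strand. The match is a description of the 2 sequences and says nothing about binding.
SRSF4-204: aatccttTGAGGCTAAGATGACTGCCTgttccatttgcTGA
SRSF6-202: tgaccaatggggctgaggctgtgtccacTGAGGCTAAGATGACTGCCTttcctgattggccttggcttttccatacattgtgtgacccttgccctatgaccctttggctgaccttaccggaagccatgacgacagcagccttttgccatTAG

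At least 1 transcript annotated for nonsense-mediated decay was present for all 12 SR proteins, all 4 SR-related proteins, 5 of the 6 kinases (all but CLK2) and 15 of the 24 hnRNPs (62.5%). PTBP2 and PTBP3 had none in this annotation. Over all members the share was 75% (36 of 48), beside 42.2% of the 13232 protein-coding genes with a level of at least 1 CPM. A transcript with a retained intron was annotated for 70.8% of the members and 57.1% of those coding genes. Members also had more annotated transcripts, with a median of 12 against 7, and how far that number sets these shares was not tested.

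Sequencing gave 9997706 counts in sample 1 and 21284648 in sample 2, and the smallest count of any member in either library was 157. The 48 genes held 1.70% of the counts in sample 1 and 1.64% in sample 2. FKBP5 itself had 41 and 77 counts, or 3.95 and 3.52 CPM (counts scaled to library size). With no control library that level does not check the label. All levels compared between genes are given per kilobase, as the deposited CPM divided by the length of the principal coding transcript in kilobases. Values are written for sample 1 and then sample 2, and mean ± SD is over the 2 samples (n = 2).

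The SR proteins ranged from SRSF9 at the top to SRSF12 at the bottom, with mean levels of 189.7 and 4.18 CPM per kilobase. Their median was 79.5 ± 0.334 CPM per kilobase, and 8 of the 12 had at least 100 CPM. SRSF9, a short SR protein, stood at 203 and 177 CPM per kilobase. SRSF10, which acts as a repressor when it is dephosphorylated after heat shock, followed at 148 and 137. The 2 samples of SRSF9 lay above both samples of every other SR protein by this length. With all exons joined its mean of 60.9 lay below SRSF5 at 66.9 and SRSF7 at 61.2. SRSF5 had 121 and 133 CPM per kilobase, SRSF4 111 and 120.2, and SRSF7, which binds export factor NXF1, 104 and 94.9.

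Lower in the order came SRSF11, a U2AF-interacting member of the family, at 87.5 and 90.3 CPM per kilobase. SRSF3, which joins splicing to polyadenylation and export, had 72.0 and 68.3. SRSF1, the founding SR protein also known as ASF/SF2, measured 55.9 and 51.7, and SRSF2, known as SC35 and used to mark nuclear speckles, 54.0 and 51.5. The samples of SRSF1 and SRSF2 overlapped, so these founding members could not be ordered. Both values also depend on bases shared with other genes, given with the overlaps further on. The remaining 3 SR proteins were clearly lower: SRSF6 at 22.1 and 18.7, SRSF8 at 11.5 and 11.1, and SRSF12 at 4.42 and 3.94. SRSF12 was counted 165 and 310 times, so its counting interval was, relative to its level, the widest of the family, from 13.6 to 18.5 CPM in sample 1.

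Among the SR-related proteins, SRRM2 exceeded the rest. This very large scaffold of nuclear speckles had 2078 and 2411 CPM, the highest of all 48 members before division by length. Per kilobase of its 9353-base transcript it reached 222 and 258, and it ranked sixth. SRRM1, a splicing coactivator that binds SRRM2, had 54.7 and 60.1 CPM per kilobase. TRA2B and TRA2A, homologues of fly Transformer-2 that activate exons, had 55.4 and 54.4 and then 47.4 and 44.5. The TRA2B samples were above the TRA2A samples by this length, but the order of the pair turned when all annotated exons were joined (log2 ratio -0.81).

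The kinases were mostly low beside the SR proteins and hnRNPs, with a median of 17.3 ± 0.324 CPM per kilobase. Of the 6, 5 lay above the median of coding genes of at least 1 CPM, 8.83 CPM per kilobase. CLK2, a nuclear kinase of the LAMMER family, was the highest at 75.8 and 90.7. CLK3 followed at 42.8 and 45.3, and CLK1 at 22.1 and 20.3. The cytoplasmic kinases that send SR proteins to the nucleus were near each other, SRPK2 at 13.0 and 13.9 CPM per kilobase and SRPK1 at 9.13 and 8.85. CLK4, the close relative of CLK1, was the lowest at 6.31 and 5.60. Both samples of SRPK2 lay above both of SRPK1. That order held under every alternative tried, with a log2 ratio of at least 0.27.

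**Figure D1:**
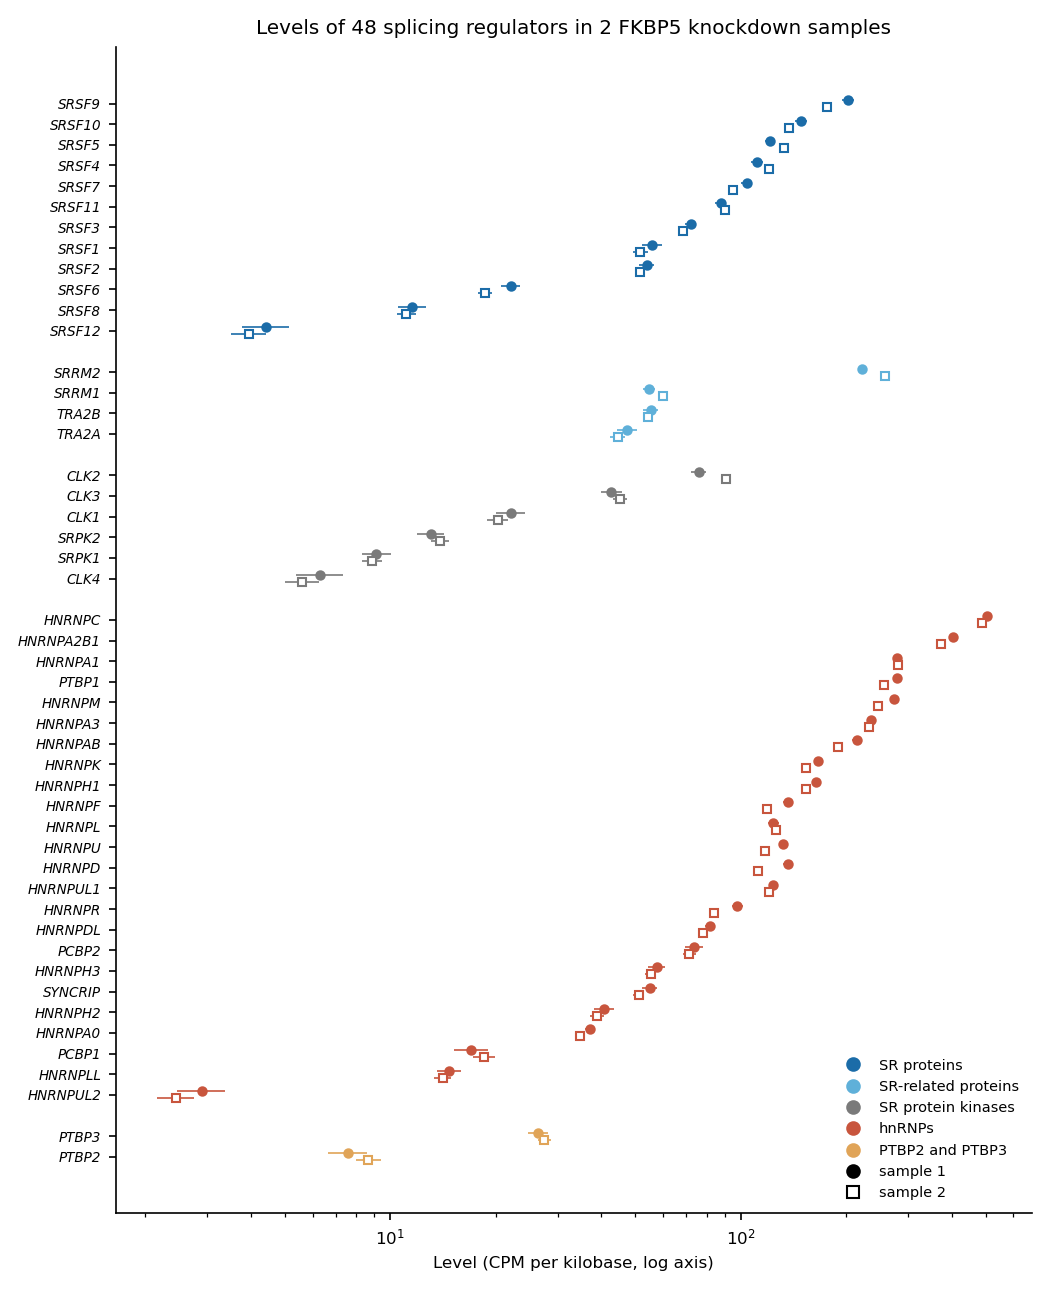
Level of each of the 48 genes in CPM per kilobase of its principal coding transcript (horizontal log axis), by class, with filled circles for sample 1, open squares for sample 2 and lines for 95% exact Poisson counting intervals. HNRNPC is highest at 505 and 486, SRSF9 leads the SR proteins at 203 and 177, and HNRNPUL2 is lowest at 2.89 and 2.44.

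The hnRNPs held 5 of the 6 highest places per kilobase, SRRM2 being the sixth, and also the lowest one. HNRNPC, a core protein that forms tetramers on nascent RNA and binds uridine tracts, had 505 and 486 CPM per kilobase. HNRNPA2B1, another core protein, had 404 and 373. HNRNPA1, a widely studied silencer of exons, had 279.5 and 280.6, and HNRNPA3 had 235 and 233. The fourth gene of that subfamily, the intronless HNRNPA0, was much lower at 37.2 and 34.7. HNRNPC stood above HNRNPA2B1 and HNRNPA2B1 above HNRNPA1 with no overlap of samples. These places depend on the length. With all exons joined HNRNPA1 was the highest of the 48 at 227 CPM per kilobase, above HNRNPA2B1 at 147 and HNRNPC at 116. With the median coding length SRRM2 led at 1959, ahead of HNRNPA1 at 1387, HNRNPC at 647 and HNRNPA2B1 at 386. HNRNPA2B1 over HNRNPA1 had log2 ratios of -0.63 and -1.85 under these lengths.

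PTBP1, the polypyrimidine tract binding protein (hnRNP I), measured 278 and 257 CPM per kilobase, and HNRNPM 273 and 247. Their samples overlapped. HNRNPAB had 215 and 190.0, HNRNPD (AUF1, which binds AU-rich elements) 136 and 112, and HNRNPDL 81.7 and 78.2. HNRNPK, a KH-domain protein that binds poly(C), had 166 and 154, which overlapped HNRNPH1 at 164 and 154. HNRNPH1 binds runs of G, as does HNRNPF at 136 and 119. The other genes of this G-binding subfamily were lower, HNRNPH3 at 57.5 and 55.4 and HNRNPH2 at 40.7 and 38.9.

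Several members lay close together near 125 CPM per kilobase. HNRNPL, which binds CA repeats, had 124 and 126, HNRNPU, the scaffold attachment factor SAF-A, 132 and 117, and HNRNPUL1 124 and 120.05. HNRNPD, SRSF5, HNRNPF and SRSF4 lay in the same range, and each gene overlapped its neighbour in the order, although SRSF5 and HNRNPL lay wholly above SRSF4. Below them stood HNRNPR at 97.8 and 84.1 and its paralog SYNCRIP (hnRNP Q) at 54.9 and 51.1. PCBP2 had 73.4 and 71.3, the intronless PCBP1 17.02 and 18.5, and HNRNPLL, a regulator of alternative splicing in lymphocytes, 14.7 and 14.1. HNRNPUL2 was the lowest of all 48 at 2.89 and 2.44, from 157 and 279 counts.

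SR proteins and hnRNPs were compared as groups by their medians. The hnRNP median was 124 ± 6.89 CPM per kilobase, 1.56 times that of the SR proteins. The ratio of medians was 1.60 in sample 1 and 1.49 in sample 2, a log2 difference of 0.65 ± 0.07. It kept its sign under every alternative, from 0.42 when bases shared with same-strand exons of other genes were left out of the lengths to 0.997 when TRA2A and TRA2B were counted as SR proteins and only genes named HNRNP as hnRNPs. The ranges overlapped widely, from 4.18 to 189.7 for SR proteins and from 2.67 to 496 for hnRNPs. Beside them, the median over 13232 coding genes was 8.83 and their 90th percentile 52.9. Above that percentile lay 8 of 12 SR proteins and 19 of 24 hnRNPs.

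Summed over their genes, the hnRNPs reached 3650 and 3417 CPM per kilobase and the SR proteins 995 and 958, a ratio of 3.67 and 3.57. The hnRNP class has more genes, which enters this sum. The sums and the shares below use lengths that include bases shared with other genes. Without same-strand shared bases SRSF1 would go from 53.8 to 468 CPM per kilobase, above SRSF9 at 189.7. PCBP2 would go from 72.3 to 177. SRSF9 made up 20.4% and 18.4% of the SR protein sum, and the top 3 genes 47.5% and 46.7%. HNRNPC made up 13.8% and 14.2% of the hnRNP sum, and the top 3 genes 32.6% and 33.4%. In CPM without division by length, the class medians were 230.3 for SR proteins and 357 for hnRNPs.

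Of the 47 neighbouring pairs in the order of all 48 genes, 23 had overlapping samples. This compares only the 2 values of each gene and leaves out counting error, so a lack of overlap does not by itself resolve a step. HNRNPA1 over PTBP1 was such a step, at 279.5 against 278.3 in sample 1. A clear step separated HNRNPC from HNRNPA2B1 (1.28-fold) and HNRNPA2B1 from HNRNPA1 (1.39-fold). Another separated SRSF12 from HNRNPUL2 at the bottom (1.57-fold). These folds compare means over 2 samples and carry the uncertainty of the transcript length.

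Paralogs were compared in 37 pairs within 17 groups, and the more abundant gene of a pair exceeded the other in both samples in 36 of them, counting intervals included. The exception was HNRNPU over HNRNPUL1, at 1.06 in sample 1 and 0.977 in sample 2, and with all exons joined its log2 ratio was -0.81. A ratio of at least 2 was found in 23 pairs and of at least 10 in 5. Transcript length decided part of this: 25 pairs kept their order under every alternative and 12 did not. Among the 23 pairs of 2-fold or more, 20 kept the order and 15 stayed 2-fold or more throughout.

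The PTB proteins had one of the steepest ratios. PTBP2, the neuronal paralog that PTBP1 represses through exon skipping and decay, had 7.58 and 8.66 CPM per kilobase. PTBP1 exceeded it 36.7-fold in sample 1 (95% exact binomial interval 32.3 to 42.0) and 29.7-fold in sample 2 (27.3 to 32.3). The bounds of the 2 samples nearly met, and PTBP2 itself did not pass the test between libraries (adjusted p = 0.31, exact binomial test). PTBP3, first described in blood-forming cells, had 26.4 and 27.5 CPM per kilobase, and PTBP1 exceeded it 10.5-fold and 9.33-fold. PTBP3 stood above PTBP2 3.48-fold and 3.18-fold. None of these 3 orders turned under any alternative, and with all exons joined PTBP1 exceeded PTBP2 64.7-fold.

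In the SR family, SRSF10 exceeded SRSF12 33.6-fold in sample 1 (28.7 to 39.5) and 34.8-fold in sample 2 (31.0 to 39.1). With all exons joined the ratio was 6.85-fold (log2 2.78). Their coding sequences were 62.8% identical. SRSF4 and SRSF5 differed little, with SRSF5 1.09-fold and 1.11-fold higher, while the third gene of the group, SRSF6, lay well under both. SRSF4 exceeded SRSF6 5.04-fold in sample 1 (4.69 to 5.43) and 6.44-fold in sample 2 (6.11 to 6.79), and SRSF5 exceeded it 5.50-fold and 7.14-fold. For both ratios the samples' intervals were apart. With all exons joined SRSF4 exceeded SRSF6 only 1.62-fold (log2 0.70), and SRSF5 exceeded it 3.50-fold. SRSF2 exceeded SRSF8, a gene of a single exon, 4.68-fold and 4.64-fold. SRSF7 stood 1.44-fold and 1.39-fold over SRSF3, an order that turned without division by length (log2 ratio -0.26).

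Among the hnRNPs, the largest ratios were those over HNRNPUL2, 45.6-fold and 48.1-fold for HNRNPU and 42.8-fold and 49.2-fold for HNRNPUL1. HNRNPL exceeded HNRNPLL 8.43-fold and 8.92-fold. HNRNPA2B1 exceeded HNRNPA0 10.9-fold and 10.7-fold, and HNRNPA1 exceeded it 7.51-fold and 8.09-fold. HNRNPH1 stood 4.03-fold and 3.95-fold over HNRNPH2, and HNRNPK 9.78-fold and 8.29-fold over PCBP1. With all exons joined these ratios were smaller, 14.7 for HNRNPU and 25.8 for HNRNPUL1 over HNRNPUL2, 4.46 for HNRNPL over HNRNPLL, 4.08 for HNRNPA2B1 over HNRNPA0, 1.54 for HNRNPH1 over HNRNPH2 and 5.18 for HNRNPK over PCBP1. Without same-strand shared bases HNRNPUL2 would be at 4.92 CPM per kilobase in place of 2.67, which lowers both ratios over it. HNRNPL would be at 162 in place of 125, which raises its ratio over HNRNPLL. Without bases shared on either strand PCBP1 would be at 37.2 in place of 17.8 and HNRNPK at 162 in place of 160, a smaller ratio. PCBP2 over PCBP1 was 4.31-fold and 3.85-fold, but -0.42 on the log2 scale with all exons joined. With that same length the order also turned for HNRNPD over HNRNPDL (-0.17), HNRNPH1 over HNRNPF (-0.81) and HNRNPH3 over HNRNPH2 (-0.70). HNRNPAB over HNRNPD turned with the median coding length (-1.18) and without length (-0.048). In the kinases, CLK1 exceeded CLK4 3.50-fold and 3.62-fold. CLK2 exceeded CLK3 1.77-fold and 2.004-fold, an order that turned with the median coding length (-0.48).

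**Figure D2:**
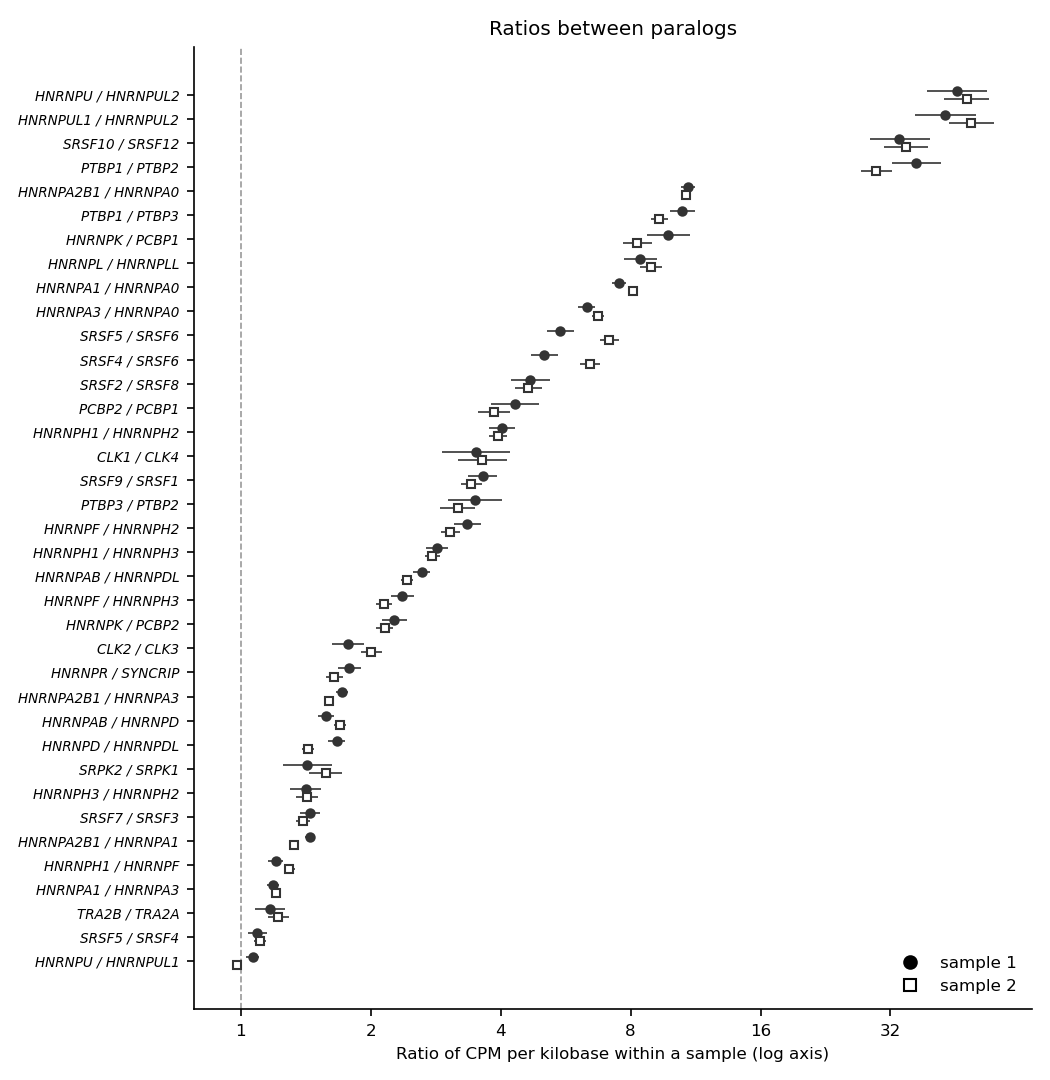
Ratio of levels per kilobase for each of 37 paralog pairs (horizontal log axis), with filled circles for sample 1, open squares for sample 2 and lines for 95% exact binomial counting intervals. The dashed line marks equal levels; HNRNPU over HNRNPUL1 lies on both sides of it at 1.06 and 0.977, and PTBP1 over PTBP2 reaches 36.7 and 29.7.

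Reads can be shared between paralogs where their sequences are alike. Only the coding sequences of the principal transcripts were compared, so the values here set no limit on the reads shared. Coding identity within pairs ran from 38.3% (SRSF4 with SRSF5) to 87.6% (HNRNPH1 with HNRNPH2). The longest run shared by a pair of coding sequences was 50 bases, in HNRNPH1 and HNRNPH2, starting at coding base 772 in both. It is printed in capitals with 20 coding bases on each side to show how closely the most alike members match. The genes lie on chromosome 5 (179614178 to 179634784, minus strand) and chromosome X (101408295 to 101414133, plus strand). Lower-case bases on either side already differ between the genes.
HNRNPH1: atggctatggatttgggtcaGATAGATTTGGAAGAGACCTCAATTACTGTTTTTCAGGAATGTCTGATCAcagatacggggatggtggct
HNRNPH2: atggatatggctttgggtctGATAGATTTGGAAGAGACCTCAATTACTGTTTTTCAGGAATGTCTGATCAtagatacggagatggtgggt

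SRSF2 and SRSF8 shared a coding run of 34 bases, again from the same coding base, 44. It is shown because these genes differ 4.68-fold and 4.64-fold in level while the coding sequence of the shorter matched the other at 83.6% of its bases. Capitals mark the shared run. SRSF2 lies on chromosome 17 (76734115 to 76737374, minus strand, 2 exons in its principal transcript) and SRSF8 on chromosome 11 (95067197 to 95071224, plus strand, 1 exon).
SRSF2: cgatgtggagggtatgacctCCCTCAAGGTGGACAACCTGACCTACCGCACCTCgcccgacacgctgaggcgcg
SRSF8: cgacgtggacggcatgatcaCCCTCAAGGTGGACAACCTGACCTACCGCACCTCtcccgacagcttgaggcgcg

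Some members also share bases with other annotated genes, and their levels were recomputed with those bases left out of the length. The sources used here do not give the counting program's treatment of reads that fit several genes, nor its use of strand. In GENCODE 29, 30 members had more than 98% of their 50-base stretches in no other gene's transcript, and 8 had under 80%. SRSF1 had the least unique sequence, 14.9% of its principal transcript. On the same strand, 88.5% of it lies in exons of AC015813.2, a gene listed with 0 counts in both samples. Over the 174 bases outside those exons the same counts would give 468 CPM per kilobase in place of 53.8. That value would be the second highest of the 48, and with it the ratio of SRSF9 to SRSF1 turned (log2 -1.30). Which gene the reads in the shared bases were counted for was not tested.

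PCBP2 had 59.2% of its transcript in same-strand exons of AC023509.1, also at 0 counts, and its level went from 72.3 to 177 CPM per kilobase without those bases. With that length HNRNPK no longer exceeded PCBP2 (log2 ratio -0.15). HNRNPUL2 had 45.7% in exons of the readthrough gene HNRNPUL2-BSCL2, at 0 counts, and went from 2.67 to 4.92, which would lie above SRSF12 at 4.18. HNRNPL had 22.7% in AC008982.1 and went from 125 to 162. In these 4 genes the overlapping partner held no count at all.

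On the opposite strand, PCBP1 had 52.2% of its single exon across from PCBP1-AS1, which had 327 and 642 counts. Its own counts were 309 and 708. SRSF9 had 41.2% across from GATC (444 and 796 counts), SRSF2 33.8% across from MFSD11 (255 and 533) and SRSF1 26.6% across from AC015813.5 (21 and 39). Without bases on either strand PCBP1 went from 17.8 to 37.2 CPM per kilobase, SRSF9 from 189.7 to 323 and SRSF2 from 52.8 to 79.6. For SRSF1 only 74 bases remain, over which its counts would give 1100.0 CPM per kilobase, above every other member. The library kit was directional, but without a stated strand setting, reads from these genes and their partners cannot be told apart.

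**Figure D3:**
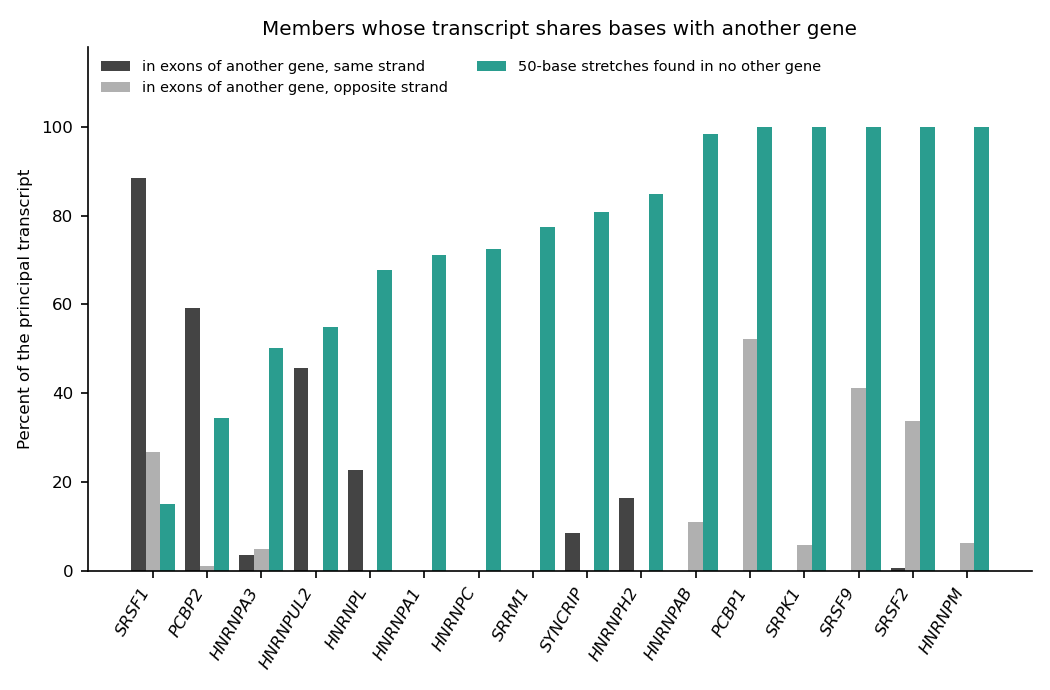
For the members with overlap or little unique sequence, bars give the percent of the principal transcript in same-strand exons of another gene (black) and on the opposite strand (grey), and the percent of its 50-base stretches found in no other gene (green). SRSF1 has 88.5% same-strand overlap and 14.9% unique stretches, and PCBP1 has 52.2% opposite-strand overlap.

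Few counts were listed for pseudogenes of the members, and reads lost or moved between a member and its copies were not measured. The 74 annotated pseudogenes of HNRNPA1 together held 156 and 442 counts, 1.31% and 1.75% of those of HNRNPA1. HNRNPA1P48, a further copy that GENCODE 29 classes as protein-coding, is outside that sum and had 78 and 225 counts. Among genes annotated by symbol as pseudogenes, the highest share was that of PCBP2, 1.85% in sample 2. HNRNPA3 had unique stretches over 50.2% of its transcript, HNRNPA1 over 71.2% and HNRNPC over 72.4%, and part of the rest was shared with such copies. Adding the pseudogene counts moved no paralog ratio beyond its spread.

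The 2 libraries were compared gene by gene with an exact binomial test, 2-sided, with Benjamini-Hochberg adjustment over the 15530 genes of at least 1 CPM on average. It compares libraries of 1 group, not conditions, and holds no variation between cultures. Past an adjusted p of 0.05 were 21 of the 48 members, 5 higher in sample 2 and 16 lower. Over all genes tested 8.97% passed, 4.41% higher and 4.56% lower. The test passes small differences in abundant genes, and 32 members had at least 100 CPM. Among tested genes of that level 26.5% passed, and among those members 20, or 62.5%. As in any bulk sample, fewer cells with a transcript and less of it per cell cannot be told apart. No member differed 1.5-fold, and the cause of the difference between libraries was not tested.

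Every hnRNP that passed was lower in the deeper sample 2, 12 of 24. HNRNPD, at 414 CPM in sample 1 and 340 in sample 2, had the lowest ratio, 0.82 (interval 0.79 to 0.85, adjusted p = 1.9e-21 in the exact binomial test). HNRNPR followed with 264 and 227 CPM (0.86), HNRNPF with 375 and 327 (0.87), HNRNPAB with 385 and 341 (0.89) and HNRNPU with 900 and 801 (0.89). PTBP1, HNRNPA2B1, HNRNPK, HNRNPM, HNRNPH1, HNRNPA0 and HNRNPC were the others, at 0.90 to 0.96. Passed or not, 21 hnRNPs were lower and 3 higher, beside 6365 lower and 6867 higher of the 13232 coding genes of at least 1 CPM. The median log2 ratio of the hnRNPs was -0.10, beside 0.01 over all genes tested.

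HNRNPA1 and HNRNPA3 did not pass, with 1152 and 1156 CPM for the first and 486 and 481 for the other. Their ratios of sample 2 to sample 1 were 1.004 (0.98 to 1.03) and 0.99 (0.96 to 1.02). HNRNPA2B1, at 1413 and 1303 CPM, had a ratio of 0.92 (0.90 to 0.94). Within this subfamily HNRNPA2B1 over HNRNPA1 was 1.45 (1.41 to 1.48) in sample 1 and 1.33 (1.31 to 1.35) in sample 2. In all, 10 of the 37 paralog ratios had intervals of the 2 samples that did not overlap, with no adjustment for the number of pairs.

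SR proteins were split. SRSF9 (244 and 212 CPM), SRSF6 (95.5 and 80.7), SRSF7 (259 and 236) and SRSF10 (242 and 224) were lower in sample 2, and SRSF5 (342 and 375) and SRSF4 (266 and 287) were higher. SRSF6 had a ratio of 0.85 and SRSF4 of 1.08, although both belong to 1 paralog group. Of the SR-related genes SRRM2 and SRRM1 were higher, SRRM2 with a ratio of 1.16 (1.14 to 1.18, adjusted p = 6.8e-74, exact binomial test). CLK2 was the only kinase to pass, with 147 and 175 CPM and the highest ratio of all members, 1.20 (1.13 to 1.27). PTBP2 and PTBP3 did not pass, at 1.14 (0.98 to 1.34) and 1.04 (0.96 to 1.13). With DESeq2 size factors 18 members passed, as SRSF10, HNRNPA0 and HNRNPC no longer did (adjusted p = 0.0628, 0.0565 and 0.205, exact binomial test). Without the filter on low genes 19 passed, SRSF10 and HNRNPC being lost (adjusted p = 0.0604 and 0.118, exact binomial test).

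**Figure D4:**
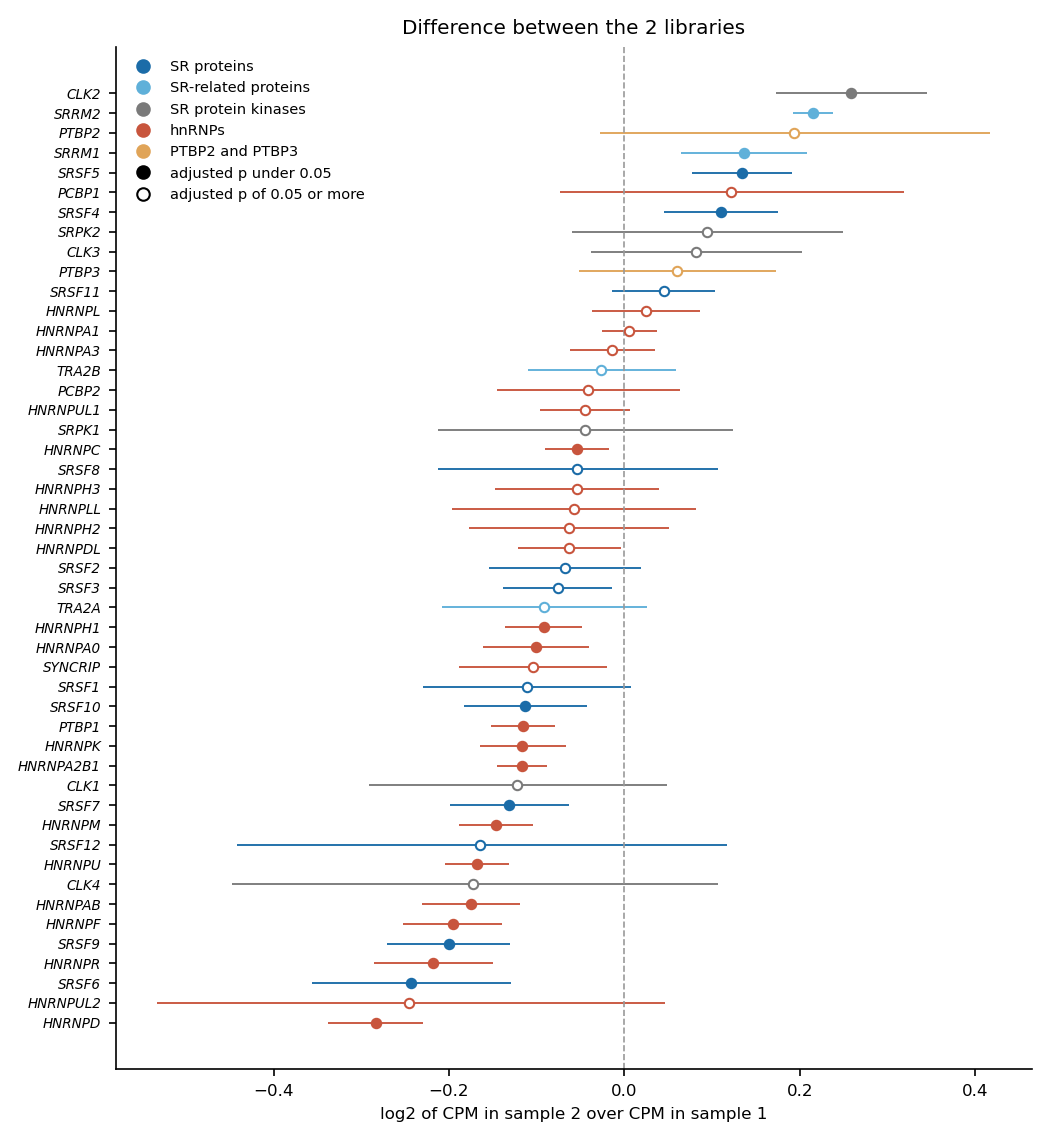
Difference between the 2 libraries for each member as log2 of its CPM in sample 2 over that in sample 1 (horizontal axis), coloured by class, with 95% exact binomial intervals. Filled points passed an adjusted p of 0.05; 16 of these lie to the left of 0 and 5 to the right, from HNRNPD at -0.28 to CLK2 at 0.26.

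Other splicing factors set the scale for the members. The 29 core spliceosome genes had a median of 64.4 CPM per kilobase, between the SR protein and SR-related medians, led by SNRNP70 of the U1 particle at 476 and U2AF2 at 298. Of 28 tested, 5 differed between the libraries, all lower in sample 2, beside 8.97% of all genes tested. Of the 29 genes, 19 had at least 100 CPM, a level at which 26.5% of all tested genes passed. SNRPD3, at 24.8, was the lowest but 1. U2AF1, the small U2AF subunit, had 5 and 10 counts and 0.488 CPM per kilobase. Its annotated copy U2AF1L5 shares 96.8% of its 50-base stretches and had 119 and 217 counts, so reads of the 2 genes cannot be told apart over most of the transcript.

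The 23 genes of hnRNP-like proteins had a median of 29.03 CPM per kilobase, and 9 of 20 tested passed, all lower in sample 2, beside 8.97% of all genes tested and 26.5% of those of at least 100 CPM. KHSRP at 211.5 and EWSR1 at 171 were the highest. RBMXL2 (0 and 6 counts) and RALYL (2 and 1) were the lowest. MATR3 had 57 and 115 counts, and 96.7% of its principal transcript lies in exons of a second Ensembl gene of the same symbol, which had 1 and 2 counts.

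Genes that handle SR proteins, such as importers, phosphatases and other arginine- and serine-rich proteins, had a median of 38.8, with PNN at 128 and SRRT at 99.1 the highest and SRPK3 at 7.06 and DYRK1A at 2.53 the lowest. Of these 16, PNN was higher in sample 2 (adjusted p = 0.00058, exact binomial test) and 3 were lower. Over all genes tested 8.97% passed. At least 100 CPM was reached by 12 of the 16, and 26.5% of all tested genes of that level passed. The decay factors that degrade transcripts with a premature stop had a median of 13.9, from SMG5 at 69.7 and UPF1 at 55.6 to UPF2 at 8.75 and SMG6 at 7.30. The lowest adjusted p of the 10 was 0.244 (exact binomial test).

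The list named tissue-restricted regulators had the lowest median of the lists of splicing factors, 4.97 CPM per kilobase over 27 genes. The name is that of the list, and how restricted each gene is was not tested. KHDRBS1 and RBFOX2 reached 125 each, near the hnRNP median, while SRRM4 (1 and 3 counts) and CELF6 (0 and 2) were at the limit of detection. A level of 3 counts, the fixed value taken here as that limit, is 0.289 CPM in sample 1 and 0.137 in sample 2. Of these genes 22 had at least 1 CPM. NOVA2 was higher in sample 2 and MBNL1 lower, and the other 20 tested did not pass. Over all genes tested the share that passed was 8.97%.

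**Figure D5:**
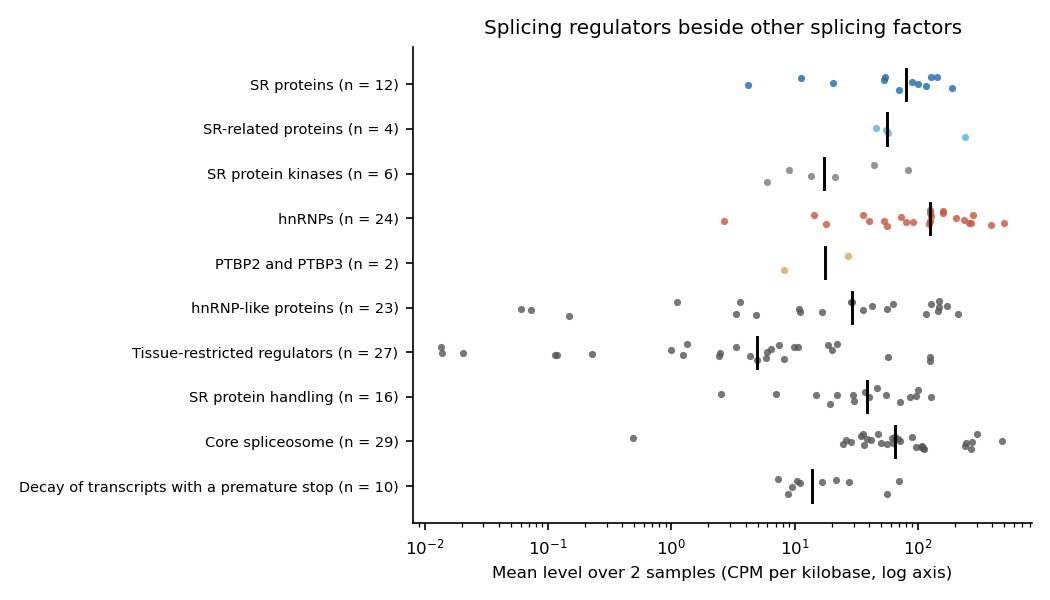
Mean level over the 2 samples in CPM per kilobase (horizontal log axis) for each gene of the member classes (coloured) and of the other lists (grey), with a black bar at each median. The hnRNP median of 124 is the highest, followed by the SR proteins at 79.5 and the core spliceosome at 64.4. The list named tissue-restricted regulators has the lowest plotted, 4.97.

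Markers of the line were present, with all 9 genes of its list at 1 CPM or more (NEFL at 305 and 289 CPM, VIM at 130.3 and 126). Of the blood markers, CD14 had 5 and 19 counts, PTPRC 1 and 10, and CD3E 0 and 5. LYZ had 1 and 1, and HBB 1 and 0. The 5 fibroblast markers summed to 62.5 and 72.4 CPM, mostly COL1A1 at 54.0 and 65.4. COL3A1 had 5.98 and 4.71 CPM, and DCN had 1 and 2 counts. COL1A1 was higher in sample 2, as were SRRM2 and CLK2. COL3A1 was lower there but did not pass (adjusted p = 0.44, exact binomial test). The part of COL1A1 in the differences between the libraries was not tested.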

How the data were processed

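The values are deposited whole-number counts per Ensembl gene and deposited CPM for 2 FKBP5 knockdown samples of HEK293T. Per the labels' protocols, RNA was taken up in TRIzol and libraries were made with a directional kit. STAR 2.7.7a, edgeR and the build GRCh38 are named in the submitters' processing notes. The sources used here do not give the counting program, its use of strand or its gene models. The authors' CPM are counts multiplied by a single factor in each library (100% whole reads, tolerance 1e-06), and the library size behind them was 3.78% and 2.68% above the column totals.

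Levels between genes are CPM per kilobase of the APPRIS principal coding transcript of GENCODE 29 (the longest where several tie). Gene symbols were found for 99.5% of IDs, and 96.4% were in GENCODE 29. Intervals are 95% exact Poisson or exact binomial and cover counting error only. They treat every read as independent, and no molecular identifiers are stated. The binomial test between libraries was run on genes averaging 1 CPM or more. Named genes are all members and, of each other list, the 2 highest and 2 lowest per kilobase. Genes chosen after their values were seen were PTPRC, LYZ, HBB, CD14, CD3E, COL1A1, COL3A1, DCN, MATR3, U2AF1L5, NOVA2, MBNL1 and the overlapping genes. A gene of the marker lists is not reported here. The members and lists were chosen with earlier results of these data known. Alternatives were other lengths, scalings, filters and classes, pseudogene counts added, and each sample left out. Python 3.11.15, scipy 1.17.1, statsmodels 0.14.6, R 4.3.3, edgeR 4.0.16 (TMM) and DESeq2 1.42.0 (size factors) were used.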

Additional observations from a re-analysis of the deposited data

How the results depend on the processing

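The transcript length sets every level per kilobase, and 2 samples of 1 group give no effect of the knockdown. The median of the SR proteins was 35.4 CPM per kilobase with all exons joined, 120.2 with the median coding length, 230.3 without length, 82.1 scaled to column totals, 88.9 over members with at least 80% unique stretches, 62.5 with TRA2A and TRA2B included, and 94.2 without bases shared on the same or on either strand. The hnRNP median was 57.2, 175 and 357 under the first 3. The log2 ratio of the medians was 0.55 (median coding length), 0.47 (unique stretches), 0.997 (other classes), 0.42 (without same-strand shared bases) and 0.44 (either strand). Leaving out 1 sample at a time gave 79.3 to 79.8, 118.1 to 128 and 0.57 to 0.68. Paralog log2 ratios that turned with all exons joined were TRA2B over TRA2A (-0.81), HNRNPA2B1 over HNRNPA1 (-0.63), HNRNPD over HNRNPDL (-0.17), HNRNPH1 over HNRNPF (-0.81), HNRNPH3 over HNRNPH2 (-0.70), PCBP2 over PCBP1 (-0.42) and HNRNPU over HNRNPUL1 (-0.81 from 0.03). With the median coding length these were CLK2 over CLK3 (-0.48), HNRNPA2B1 over HNRNPA1 (-1.85) and HNRNPAB over HNRNPD (-1.18), and without length SRSF7 over SRSF3 (-0.26) and HNRNPAB over HNRNPD (-0.048). Without same-strand shared bases SRSF9 over SRSF1 was -1.30 and HNRNPK over PCBP2 -0.15, and on either strand -1.77 and -0.16; these lengths were chosen after seeing the data. The divisor changed in each case, and which length fits the cells was not tested. Scaling to column totals, adding pseudogene counts and leaving out a sample turned none of the 37 ratios, except HNRNPU over HNRNPUL1 without sample 1 (-0.03). Members past the test between libraries numbered 21 with TMM or a minimum of 10 CPM, 22 with column totals, 18 with DESeq2 size factors and 19 with no filter. No paired analysis was possible because there is 1 group.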
